A study of Homo sapiens with 15 samples.

Results

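OR51E1, ADRA2A, SCGN, CACNA1D and CAMK2N1 are 5 genes of G protein and calcium signalling among the 296 genes of a PCR panel. They were chosen by name, with earlier results of these data known. OR51E1 and ADRA2A encode cell surface receptors that act through G proteins, CACNA1D encodes a calcium channel, SCGN a calcium sensor and CAMK2N1 an inhibitor of a calcium-dependent kinase. RNA levels were measured by reverse transcription and quantitative PCR in the A549 line, which was derived from a human lung adenocarcinoma and resembles alveolar epithelium. The cells were grown on porous membranes at the air-liquid interface and exposed from above to dimethylamine vapour, a volatile amine, 3 times with a recovery period after each exposure. The 15 samples fell into 5 groups of 3, namely non-exposed controls without any exposure flow (NEC), clean air controls with the flow alone (CA), and dimethylamine at 14.9 ppm (low dose, LD), 41.1 ppm (mid dose, MD) and 81.7 ppm (high dose, HD). Per the series text the samples were biological replicates and each held RNA of 2 pooled wells. All groups had been kept without serum from the day before exposure. The LD samples shared exposure plate 1, the MD samples plate 5 and the HD samples plate 6, whereas CA and NEC each had 1 sample on each of these plates, so that dose and plate cannot be told apart among the exposed samples.

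G protein-coupled receptors sense ligands outside the cell and pass the signal to G proteins, which change the activity of enzymes such as adenylyl cyclase and of ion channels. Calcium that enters through voltage-gated channels or leaves internal stores is read by calcium-binding proteins, which in turn control kinases such as the calmodulin-dependent kinase CaMKII. OR51E1, an odorant-type receptor that responds to short and medium chain fatty acids, and the calcium sensor secretagogin (SCGN) are known from neuroendocrine cells, ADRA2A is the alpha-2A receptor for adrenaline and noradrenaline, which couples to inhibitory G proteins, and CACNA1D forms the pore of the L-type channel CaV1.3.

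A level is given here as the negative ΔCT, on a log2 scale, which is the mean threshold cycle of the normalisation genes GPN1 and TMEM184C minus that of the gene in the same sample. A difference of 1 thus stands for about 1 doubling of RNA, and a higher value for more RNA. All 5 genes gave a product in each of their 75 wells, at threshold cycles between 21.1 and 30.5, so no value was missing or filled in. Levels were not compared between genes, since each assay has its own efficiency. In a bulk sample, fewer cells that express a gene and less RNA per cell cannot be told apart. Of the markers of other cell types, none of the 14 neuroendocrine, 8 fibroblast or 6 endothelial genes listed was on the panel. Of 10 epithelial markers 4 were measured. The mean level of the keratin gene KRT18 was 5.62 in CA and 5.60 in HD (range 5.44 to 5.76 and 5.47 to 5.70, n = 3), which overlapped. CDH1, which encodes E-cadherin, lay lower in HD (1.37 in CA, range 1.25 to 1.48, and 0.51 in HD, range 0.40 to 0.67), as did the tight junction gene CLDN2 (4.14, range 4.13 to 4.15, and 3.11, range 2.96 to 3.24). The keratin gene KRT80 lay higher (-0.77, range -0.82 to -0.72, and 0.059, range -0.071 to 0.29). Of 7 leukocyte markers 1 was measured, CD79A, whose mean level was 0.40 in CA and 1.60 in HD (range 0.24 to 0.51 and 1.41 to 1.70). The part of these markers in the results was not tested.

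RefSeq promoter sequences (GRCh38.p14) matched 4 of the 5 genes, and the 250 bases upstream of each annotated start, all on the forward strand, are shown for these 4 because they differ widely in composition. They span chr11:4643732-4643981 for OR51E1, chr10:111076779-111077028 for ADRA2A, chr6:25651965-25652214 for SCGN and chr3:53494361-53494610 for CACNA1D. The genes themselves span chr11:4643982-4655488 (OR51E1), chr10:111077029-111080907 (ADRA2A), chr6:25652215-25701783 (SCGN), chr3:53494611-53813733 (CACNA1D) and chr1:20482391-20486210 (CAMK2N1). Capitals mark the motifs found in a search of both strands for TGACG, the core of a cyclic AMP response element, for TATAAA, to which the basal transcription machinery binds, and for GGGCGG, the GC box of the factor SP1.
OR51E1: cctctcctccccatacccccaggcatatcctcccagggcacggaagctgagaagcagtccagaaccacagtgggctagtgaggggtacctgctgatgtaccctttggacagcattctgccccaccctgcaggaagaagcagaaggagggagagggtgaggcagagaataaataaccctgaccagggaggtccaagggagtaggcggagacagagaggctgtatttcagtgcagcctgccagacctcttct
ADRA2A: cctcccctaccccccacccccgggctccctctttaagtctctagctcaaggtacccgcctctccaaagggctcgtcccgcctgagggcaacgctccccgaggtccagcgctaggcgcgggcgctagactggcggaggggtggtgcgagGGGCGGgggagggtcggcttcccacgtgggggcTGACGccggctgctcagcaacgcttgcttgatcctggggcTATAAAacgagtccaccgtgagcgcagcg
SCGN: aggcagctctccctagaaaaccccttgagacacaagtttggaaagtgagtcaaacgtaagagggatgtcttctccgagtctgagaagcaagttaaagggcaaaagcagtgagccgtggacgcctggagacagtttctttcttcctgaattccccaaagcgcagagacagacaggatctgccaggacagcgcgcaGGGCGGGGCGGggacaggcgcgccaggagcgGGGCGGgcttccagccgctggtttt
CACNA1D: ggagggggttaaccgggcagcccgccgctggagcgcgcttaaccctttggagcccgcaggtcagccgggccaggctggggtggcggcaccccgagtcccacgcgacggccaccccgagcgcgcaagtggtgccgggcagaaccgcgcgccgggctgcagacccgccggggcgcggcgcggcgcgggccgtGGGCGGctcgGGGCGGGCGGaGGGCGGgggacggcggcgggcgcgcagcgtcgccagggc
The OR51E1 sequence held none of these letters, 57.6% G or C and 2 CpG dinucleotides, below the median of 11 over all 27305 promoters in the table. That of ADRA2A held TGACG from 69 to 65 bases and TATAAA from 29 to 24 bases before the start, and 1 GC box. The SCGN sequence held 3 GC boxes and that of CACNA1D 4, and in each of these a pair shares bases, so that it appears as a longer run of capitals. The CACNA1D sequence was 81.6% G or C with 41 CpG, against a median of 58% G or C for all promoters. Among the 27305 promoters, 21.7% held TGACG, 11.1% TATAAA and 42.3% GGGCGG. The full palindrome TGACGTCA occurred in 1.77% and in none of these 4. A match is a description of the letters, and binding was not measured.

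OR51E1 RNA fell at MD and was lowest at HD. Its level was -0.83, -1.33 and -1.39 in NEC, -0.82, -1.63 and -1.72 in CA, and -1.73, -1.48 and -1.60 in LD. In MD it was -2.71, -2.48 and -2.80, and in HD -3.60, -3.54 and -3.30. LD overlapped CA but lay below every NEC sample, all MD samples lay below every LD and control sample, and all HD samples lay below every MD sample. Within both controls the plate 1 sample stood above the others. Against CA the difference was -2.09 ± 0.22 at HD (SE, n = 3 per group, limma adjusted p = 5.88e-06), which left 23.5% of the RNA of clean air cells, and -1.27 at MD (adjusted p = 6.02e-04, 41.4% of CA). LD did not pass the test (-0.22, 95% confidence interval -0.68 to 0.25, adjusted p = 0.576). The LD value was not stable. With the exposure plate as a block it was -0.67 (adjusted p = 0.0420), and without CA replicate 1, the sample of the same plate, it was 0.07. Over all alternatives tried the adjusted p ran from 0.0420 to 0.863. The cause of these shifts was not tested. Of the 282 genes tested, OR51E1 had the third largest fall at HD.

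ADRA2A RNA fell at MD and HD, at LD it lay at a like level without passing the test, and no step between doses passed it. The levels were -3.93, -2.81 and -2.91 in NEC, -3.77, -3.23 and -3.49 in CA, -4.49, -4.82 and -4.69 in LD, and -4.77, -4.89 and -4.80 in MD. In HD they were -3.83, -4.54 and -5.57, the widest spread of the 5 genes in any group (SD 0.87, n = 3). All 9 exposed samples lay below every CA sample, but HD replicate 1 lay only just below CA replicate 1 and above NEC replicate 1. The difference from CA was -1.15 ± 0.37 at HD (adjusted p = 0.0109) and -1.33 at MD (adjusted p = 0.00823), while LD, at -1.17, missed the threshold (adjusted p = 0.0578). Without HD replicate 3 the HD difference was -0.69 and no longer passed (adjusted p = 0.0552, range over all alternatives 2.10e-04 to 0.0552). In the LD comparison the value passed on threshold cycles without normalisation (-1.18, adjusted p = 0.0321) and in a fit of LD and CA alone (adjusted p = 0.0311), and with the plate as a block it was -0.68 (adjusted p = 0.321, range over all alternatives 0.0311 to 0.321). HD and LD differed by 0.02 (95% confidence interval -0.77 to 0.81, adjusted p = 0.972), an interval that leaves room for a change in either direction.

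CACNA1D RNA fell at MD and HD and was also the only 1 of the 5 whose controls did not overlap. Its levels were 0.11, 0.31 and 0.47 in NEC and -0.14, -0.34 and -0.12 in CA. They were -0.48, -0.54 and -0.96 in LD, -0.87, -0.94 and -1.23 in MD, and -1.64, -1.39 and -1.40 in HD. The groups descended in this order, and only LD and MD overlapped each other. The difference from CA was -1.28 ± 0.15 at HD (adjusted p = 1.32e-05, 41.2% of CA) and -0.82 at MD (adjusted p = 8.89e-04, 56.8% of CA). LD was at -0.46 and did not pass (adjusted p = 0.0686), although it passed after normalisation to TMEM184C alone (-0.49, adjusted p = 0.0329, range over all alternatives 0.0329 to 0.326).

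SCGN RNA was lower than in CA at every dose. Its levels were -3.00, -2.43 and -2.52 in NEC, -2.79, -2.64 and -2.59 in CA, -3.46, -3.33 and -3.62 in LD, and -4.06, -3.68 and -3.81 in MD. In HD they were -4.15, -5.18 and -4.66. Both controls overlapped, and LD, MD and HD lay below them and each below the group before it without overlap. SCGN fell by 1.99 at HD (SE 0.22, adjusted p = 8.19e-06, 25.2% of CA), by 1.17 at MD (adjusted p = 9.84e-04) and by 0.80 at LD (adjusted p = 0.0441, 57.5% of CA). It was the only 1 of the 5 called at LD, and the call was lost when any of the 6 LD or CA samples was left out (-0.87 to -0.72, adjusted p from 0.0537 to 0.155) and with the plate as a block (-0.57, adjusted p = 0.196, range over all alternatives 0.0311 to 0.196).

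CAMK2N1, which encodes an inhibitor of CaMKII, was the only 1 of the 5 that lay higher in exposed cells, by a small amount. Its levels were 3.35, 3.56 and 3.52 in NEC, 3.45, 3.58 and 3.47 in CA, 3.66, 3.48 and 3.46 in LD, 3.65, 3.65 and 3.74 in MD, and 3.89, 3.69 and 3.68 in HD. LD overlapped the controls, and MD and HD lay above all 6 control samples while overlapping each other. Against the CA samples alone, 43.3% of genes lay higher without overlap at MD and 45% at HD. The share above all 6 control samples was not counted. The difference from CA was 0.25 ± 0.10 at HD (adjusted p = 0.0370, 1.19-fold) and 0.18 at MD (adjusted p = 0.137). The HD call was not stable. The adjusted p was 0.0788 with the plate as a block, 0.229 after normalisation to GPN1 alone, 0.0995 in a fit of HD and CA alone, and 0.132, 0.101 and 0.0932 without HD replicate 1, CA replicate 1 or CA replicate 3, where the difference was 0.18, 0.23 and 0.23. On threshold cycles without normalisation its sign turned (-0.06, adjusted p = 0.749), and over all alternatives the adjusted p ran from 0.00206 to 0.749. The mean threshold cycles of both normalisation genes were later in HD than in CA, with a difference in the negative cycle of -0.25 for GPN1 and -0.37 for TMEM184C. The groups overlapped for both, at 25.14 to 25.47 in CA and 25.41 to 25.85 in HD for GPN1. For TMEM184C they were at 24.36 to 24.51 and 24.46 to 25.28. HD replicate 1 had the latest cycle of both genes.

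**Figure D1:**
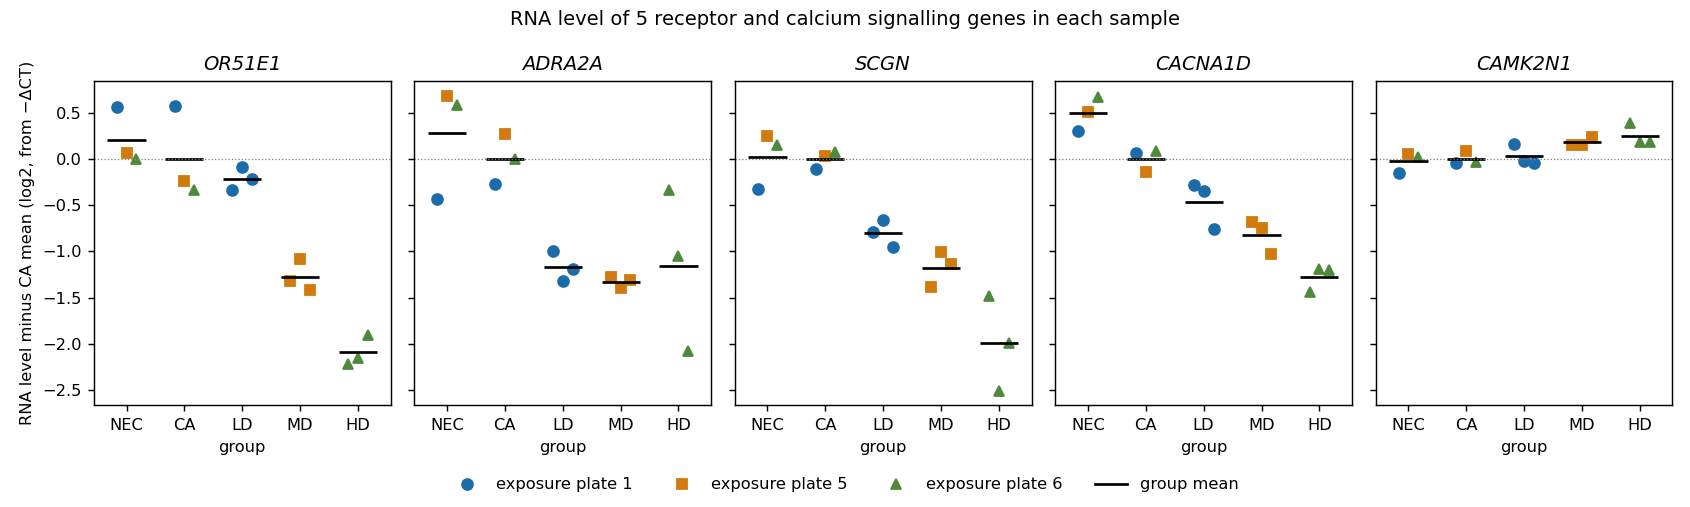
RNA level of each gene in each sample minus the mean of the CA samples, on a log2 scale, with 1 panel per gene, groups on the horizontal axis, symbols for the exposure plate and a black bar for the mean of 3 samples. OR51E1, SCGN and CACNA1D step down from CA to HD, ADRA2A lies near its low level from LD on with HD spread over 1.74 log2 units, and CAMK2N1 lies within 0.38 of the CA mean throughout.

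Per the study's methods, the panel was filled mainly with genes that differed at HD on other platforms in the same RNA, so that the shares over all genes describe this panel and not the transcriptome, and the calls are not independent of that choice. Set against all genes tested, 4 of the 5 were called lower at HD, where 31.9% of the 282 tested genes were, and 1 was called higher, where 44.3% were. The same 4 were called lower at MD, where 25.9% of genes were. At LD 1 of the 5 was called, where 7.45% of genes were called lower. The 5 genes had a median difference from CA of -1.28 at HD, -1.17 at MD and -0.46 at LD, beside 0.14, 0.17 and -0.06 over all genes tested. Counting groups without overlap instead, 4 of 5 lay below CA at HD and at MD, where 32.3% and 28.7% of genes did, and 3 of 5 at LD (ADRA2A, SCGN and CACNA1D), where 19.1% did. The 3 comparisons share the CA samples and are not independent of each other.

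To see how far the response grew with concentration, the doses were compared with each other. From MD to HD, OR51E1 fell by 0.82 (adjusted p = 0.0221), SCGN by 0.82 (adjusted p = 0.0227) and CACNA1D by 0.46 (adjusted p = 0.0477). These were 3 of the 5 called lower, where 8.10% of 284 genes were. ADRA2A and CAMK2N1 did not pass (0.17 and 0.07, adjusted p = 0.738 and 0.612). None of the 3 calls was kept with the plate as a block, where the differences were -0.74, -0.79 and -0.65 (adjusted p = 0.0597, 0.189 and 0.128). The OR51E1 call was lost without MD replicate 1 (-0.84), MD replicate 2 (-0.73), HD replicate 1 (-0.76) or HD replicate 2 (-0.79), with adjusted p from 0.0123 to 0.0868 over all alternatives. That of SCGN was lost without MD replicate 2 (-0.73) or HD replicate 2 (-0.56), with adjusted p from 0.00170 to 0.189. It was also lost in a fit of MD and HD alone (adjusted p = 0.0654). That of CACNA1D was lost without MD replicate 1 (-0.39), MD replicate 2 (-0.42), HD replicate 1 (-0.38), HD replicate 2 (-0.50) or HD replicate 3 (-0.50), with adjusted p from 0.0311 to 0.153. It was also lost after normalisation to GPN1 alone, without moderation and in a fit of MD and HD alone (adjusted p = 0.0974, 0.0595 and 0.0603).

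From LD to MD, OR51E1 fell by 1.06 (adjusted p = 0.00540), and it was the only 1 of the 5 called, where 10.3% of genes were called lower. The call was lost with the plate as a block (-0.41, adjusted p = 0.301) and without normalisation (-1.04, adjusted p = 0.0581). The differences of the other genes were -0.16 for ADRA2A, -0.37 for SCGN, -0.36 for CACNA1D and 0.14 for CAMK2N1, with adjusted p from 0.0837 to 0.750. Without LD replicate 3 CACNA1D passed (-0.50, adjusted p = 0.0204, range over all alternatives 0.0204 to 0.435).

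From LD to HD, where 24.8% of genes were called lower, OR51E1 (-1.88), SCGN (-1.19) and CACNA1D (-0.82) were called (adjusted p = 2.74e-05, 4.95e-04 and 4.95e-04), and also with the plate as a block (-1.15, -1.53 and -1.01, adjusted p = 0.00264, 0.00815 and 0.0108). CAMK2N1 lay 0.22 higher (adjusted p = 0.0745) and passed without LD replicate 1 (0.28, adjusted p = 0.0450). It also passed in 3 of 10 processing alternatives, among them normalisation to TMEM184C alone (0.31, adjusted p = 0.0222) and centring on the panel median (0.26, adjusted p = 0.0411). Over all alternatives the adjusted p ran from 0.0222 to 0.685.

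A slope over CA, LD, MD and HD gave -0.27 ± 0.03 log2 units per 10 ppm for OR51E1 (adjusted p = 6.06e-06), -0.22 for SCGN (adjusted p = 2.04e-05), -0.15 for CACNA1D (adjusted p = 2.72e-05), -0.11 for ADRA2A (adjusted p = 0.0792) and 0.03 for CAMK2N1 (adjusted p = 0.0261). Of all genes 29.4% had a called slope downwards and 42.6% upwards. With the plate as a block the slope of ADRA2A was -0.20 (adjusted p = 0.00958), and without HD replicate 1 it was -0.17 (adjusted p = 0.00648). The slope of CAMK2N1 lost its call without HD replicate 1, CA replicate 1 or CA replicate 3 (each at 0.03, adjusted p = 0.0900, 0.0590 and 0.0555), with the plate as a block (adjusted p = 0.0709) and after normalisation to GPN1 alone (0.02, adjusted p = 0.168).

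**Figure D2:**
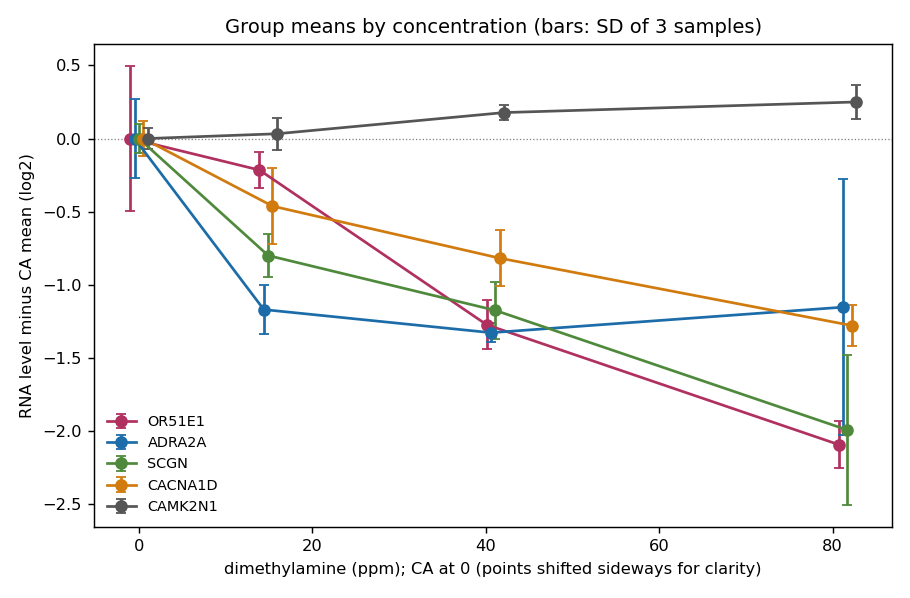
Group means of the level minus the CA mean (log2, error bars SD of 3 samples) against the dimethylamine concentration in ppm, with CA at 0 and 1 line per gene. OR51E1 is at -0.22 at 14.9 ppm and at -2.09 at 81.7 ppm, whereas ADRA2A is at -1.17 at 14.9 ppm and at -1.15 at 81.7 ppm. The value of OR51E1 at 14.9 ppm depends on the controls used, and against the CA sample of its own plate it is -0.79.

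The shapes of these curves were compared through ratios of 1 gene to another in the same sample, which do not depend on the normalisation genes. The level of OR51E1 minus that of ADRA2A was 3.06 ± 0.29 in LD and 1.17 ± 1.03 in HD (SD, n = 3), a difference of -1.89 with no overlap between the groups. The ratio of SCGN to CACNA1D overlapped between LD and HD (difference -0.38). Of the 10 pairs of genes 7 did not overlap. The pairs reuse the same genes and are not independent, and the share over all pairs of panel genes was not counted. With 3 samples against 3 the exact permutation test cannot go below p = 0.1, so that none passes (adjusted p = 0.143 over the 10 pairs for these 7). The test therefore cannot decide whether the shapes differ.

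Within plates, where each dose can be set against the control samples handled beside it, the directions were the same. The mean of the 3 exposed samples minus the CA sample of their plate was -0.79 (LD), -1.04 (MD) and -1.76 (HD) for OR51E1, and -0.90, -1.60 and -1.16 for ADRA2A. For SCGN it was -0.69, -1.21 and -2.07, for CACNA1D -0.52, -0.68 and -1.36, and for CAMK2N1 0.08, 0.10 and 0.28. In each of these 15 cases all 3 exposed samples lay beyond both the CA and the NEC sample of their plate. They lay lower for the first 4 genes and higher for CAMK2N1. The share of all genes for which this held was not counted, so the 15 cases cannot set these genes apart from the panel. Against all 3 CA samples, groups without overlap were common on the panel. At HD 45% of genes lay higher and 32.3% lower in this way, and at MD 43.3% and 28.7%. At LD 19.1% lay lower. The margin was slight for CAMK2N1 at LD, where replicate 3 was at 3.459 and the CA sample of plate 1 at 3.454. Against the NEC sample of plate 6 the HD values were -2.09 for OR51E1, -1.74 for ADRA2A, -2.14 for SCGN, -1.94 for CACNA1D and 0.23 for CAMK2N1. A plate holds 1 CA and 1 NEC sample, so these values carry no test.

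**Figure D3:**
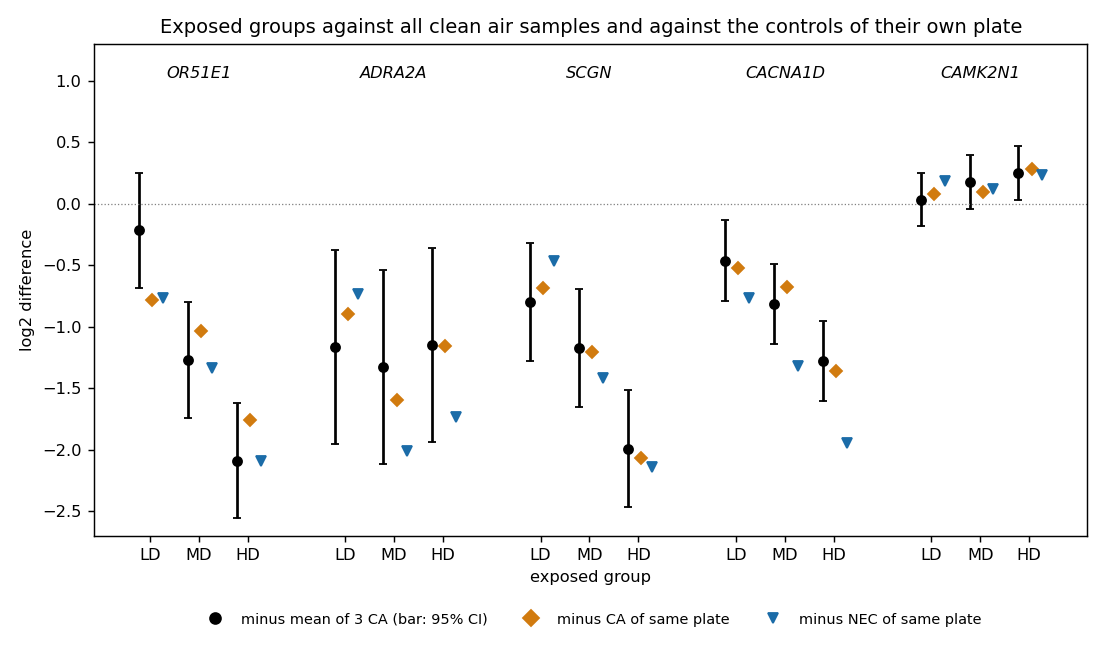
Log2 difference of each exposed group from the mean of all 3 CA samples (circles, with the 95% confidence interval from limma), from the CA sample of its own plate (diamonds) and from the NEC sample of its own plate (triangles). Of the diamonds only that of OR51E1 at LD, at -0.79, lies outside the interval around the circle (-0.68 to 0.25), and of the triangles those of OR51E1 at LD (-0.77) and of CACNA1D at MD (-1.32) and HD (-1.94) do.

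The exposure flow alone was examined by comparing NEC with CA, and none of the 5 genes was called (limma, 3 of 282 genes or 1.06% called, 46 at an unadjusted p under 0.05). CACNA1D had the largest difference of the 5, 0.49 ± 0.15 higher in NEC (adjusted p = 0.108, 0.0862 with the plate as a block, range over all alternatives 0.0747 to 0.523). All 3 of its NEC samples lay above all CA samples, where 6.38% of genes lay higher without overlap, and NEC was above CA on each plate, by 0.24 on plate 1, 0.65 on plate 5 and 0.59 on plate 6. OR51E1 (0.21), ADRA2A (0.28), SCGN (0.02) and CAMK2N1 (-0.02) had adjusted p-values from 0.740 to 0.977. Labels name the same plates for CA and NEC, and the samples of a plate deviated together.

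Other genes of both pathways were measured on the panel. Besides OR51E1 and ADRA2A, 4 genes of G protein signalling were on the panel. At HD, 2 of them rose, AKAP2, an anchor for protein kinase A (1.40 ± 0.25, adjusted p = 2.53e-04), and GPR137B, a lysosomal membrane protein related to G protein-coupled receptors (0.39 ± 0.11, adjusted p = 0.00611). PDE3A, a phosphodiesterase that breaks down cyclic nucleotides, fell by 1.00 (SE 0.17, adjusted p = 1.77e-04), and the inhibitory G protein subunit GNAI1, through which ADRA2A can signal, was at -0.25 (adjusted p = 0.146). These counts, 2 of 4 higher and 1 of 4 lower, stand beside 44.3% of all genes called higher at HD and 31.9% lower. At MD AKAP2 (0.98) was called higher and PDE3A (-0.51) lower, where 36.2% and 25.9% of all genes were, at LD AKAP2 alone (0.84, adjusted p = 0.0492), where 4.26% were called higher, and in NEC none. The LD call lay just under the threshold, and alternatives were not examined for the other genes of the lists. The number of genes called at LD, 33 in the main fit, ran from 2 to 42 over the processing alternatives.

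Of the calcium list, 9 further genes were on the panel, of which CAPN8 gave no product and 8 were tested. At HD 6 of these rose and 0 fell, with a median of 0.83, beside 44.3% of all genes called higher, 31.9% lower and a median of 0.14. DCLK1, a kinase related to the calmodulin-dependent kinases, rose by 1.86 ± 0.24 (adjusted p = 2.69e-05), S100A2 by 1.79 ± 0.34 (adjusted p = 3.58e-04) and ANXA10 by 1.08 ± 0.16, followed by ANXA3 (0.89), S100A6 (0.77) and S100A4 (0.68), which are calcium-binding proteins of the annexin and S100 families. S100A11 (0.21, adjusted p = 0.148) and CALM3, a gene for calmodulin (-0.11, adjusted p = 0.373), did not pass. At MD 5 of the 8 rose and at LD 1, DCLK1 (0.92, adjusted p = 0.0404, not examined under alternatives), with 0 falls at either dose. Beside this, 36.2% and 4.26% of all genes were called higher. In NEC none of the 8 was called against CA, but their median difference was -0.44, beside 0.0056 over all genes tested. S100A2 had the largest of these differences, -1.44 (limma adjusted p = 0.0545). Among the measured calcium genes the falls at HD were those of CACNA1D and SCGN, which had been chosen with earlier results known.

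**Figure D4:**
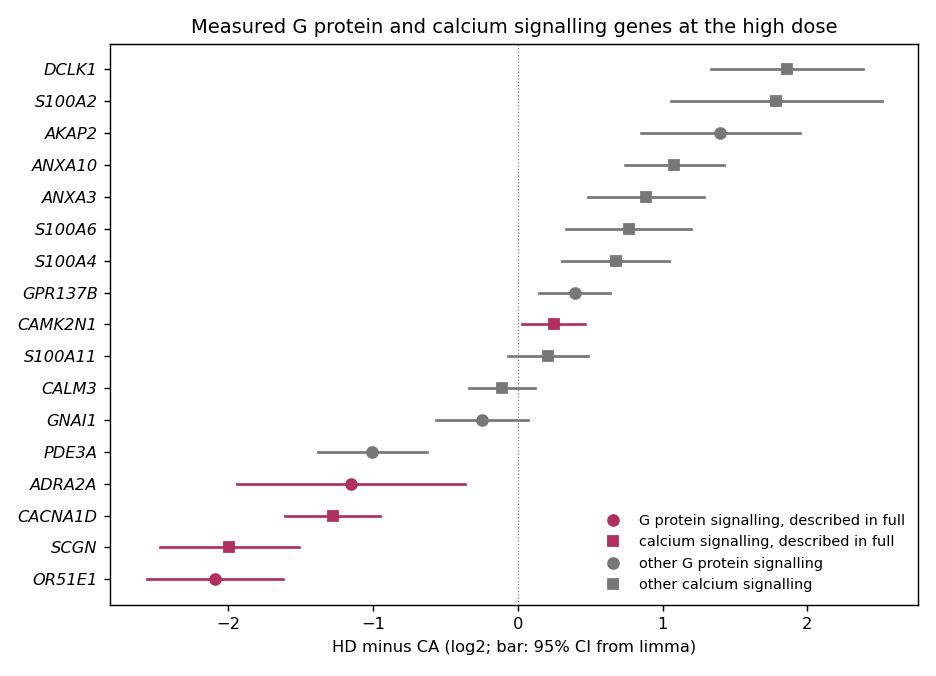
HD minus CA on a log2 scale with the 95% confidence interval from limma for the 17 tested genes of both lists, circles for G protein signalling and squares for calcium signalling, with the 5 genes described in full in red. The red genes other than CAMK2N1 occupy the bottom of the plot, and DCLK1 and S100A2 the top.

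Likeness of pattern was described by Pearson's r with each of 273 other genes over the 15 samples, which share dose groups and normalisation genes, so that r carries no test. OR51E1 was most like FN1 (r = 0.988), which encodes fibronectin, followed by C1S and F5, and most opposed to RPS27L (r = -0.975). CACNA1D was most like the transporter gene SLC17A3 (r = 0.982), then SLC23A1 and C5, and most opposed to CD9. SCGN was most like EPHX2 (r = 0.958), then CLDN2 and CD38, and most opposed to HIST1H2BD. ADRA2A had its highest r with the albumin gene ALB (0.886), followed by FGG and FGA, which encode fibrinogen chains, and its lowest with AKAP2 (-0.870). CAMK2N1 was most like INSIG1 (r = 0.887), then ZFP36L1 and EBP, and most opposed to C1R. Among the 5 themselves r was highest between SCGN and CACNA1D (0.894) and lowest between OR51E1 and CAMK2N1 (-0.867), and OR51E1 and ADRA2A, the pair of receptors, had an r of 0.514.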

How the data were processed

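Customised PCR arrays were used, with a threshold cycle (CT) for every well. One deposited matrix holds the CT values as the authors exported them, in cycles, with wells without a product marked. Another, also made by the authors, holds ΔCT on a log2 scale, that is, CT relative to the average CT of 2 normalisation genes in the sample. A search over all pairs of assays identified these as GPN1 and TMEM184C. A further deposited table, of the authors' own fold changes, was not used. Levels here are the negative ΔCT, with wells without a product treated as missing, and a gene was tested if both groups had at least 2 values. GPN1 and TMEM184C were not tested. A model with 1 mean per group over all 15 samples was fitted with limma 3.58.1 (lmFit, eBayes) in R 4.3.3, two-sided, with Benjamini-Hochberg adjustment over all genes tested and calls at an adjusted p under 0.05. Errors of differences are standard errors of that fit. The slope on dose used the 12 CA, LD, MD and HD samples. PCR arrays give no read depth, and the number of samples limits the precision. P-values measure the spread between these samples, which shared 1 plate within each dose and lay on different plates within CA and within NEC. They do not measure the spread between separate exposures to a dose.

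The 5 genes, the pathway lists, the cell markers and the tests were chosen with earlier results of these data known. Genes named are the 5, all measured genes of both lists, the normalisation genes, the epithelial and leukocyte markers on the panel, and per gene the 3 of highest and the 1 of lowest r. Alternatives were normalisation to GPN1 or TMEM184C alone, no normalisation, centring on the panel median, use of the filled values, a stricter filter, no moderation, a plate block, a replicate block, only the groups compared, and leaving out each sample. Labels place 1 CA and 1 NEC sample on each plate, and their deviations from the group means correlated within plates (r from 0.387 to 0.717 over 274 genes), so the plate block pairs NEC with CA. On data simulated for HD against CA over 274 genes, 97% of genes changed by 1 log2 unit and 100% of those changed by 2 were called, as were 5.41% of unchanged genes. The simulated noise was independent between genes and samples and held no plate effect, so these rates need not hold for the measured data. Changes smaller than 1 log2 unit were not simulated. Matplotlib 3.10.9 under Python 3.11.15 drew the figures.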

Additional observations from a re-analysis of the deposited data

How the results depend on the processing

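Over the 40 differences and slopes of the 5 genes, 562 of 640 alternatives kept direction and side of the threshold. Of the rest, 44 lost a call, 14 gained a call and 20 turned the sign, also where a call was lost with it. The filled values, the stricter filter, no moderation and fits of the groups compared alone could not alter the differences of these genes, only their adjusted p. The 562 is therefore no measure of stability. The falls of OR51E1, SCGN and CACNA1D at HD and MD, and of ADRA2A at MD, passed against CA under every alternative tried. Doses lie on plates of their own, plate effects rest on 6 control samples, and 3 samples per group limit precision. The cause of the changes below was not tested, and changes given with the results above are not all repeated here. Normalised to GPN1 alone, CAMK2N1 at HD against CA was 0.19 and SCGN at LD -0.77, neither called, HD minus LD of ADRA2A turned to -0.074, and called genes numbered 2 at LD against CA (main 33), 34 for HD against MD (58) and 52 for MD against LD (97). Normalised to TMEM184C alone, CACNA1D at LD was called at -0.49 and CAMK2N1 for HD against LD at 0.31. Without normalisation, CAMK2N1 turned to -0.062 (HD against CA), -0.25 (HD against MD), -0.083 (HD against LD) and a slope of -0.0055, ADRA2A turned to -0.15 (HD against MD) and -0.28 (HD against LD) and was called at LD at -1.18, and called genes numbered 114 at MD (175), 11 at LD, 22 for MD against LD and 1 for NEC (3). Centred on the panel median, CAMK2N1 was called at MD at 0.37 and for HD against LD at 0.26, and SCGN at LD, at -0.66, was not. Without moderation SCGN at LD, at -0.80, was not called, and 5 genes were at LD. In fits of the groups compared alone, ADRA2A at LD was called at -1.17, CAMK2N1 at HD, at 0.25, was not, and 5 genes were called at LD and 9 for NEC. With only genes detected in all samples, 6 were called for NEC. With the plate block, OR51E1 at LD was called at -0.67, SCGN at LD (-0.57) and CAMK2N1 at HD (0.25) were not, CAMK2N1 for MD against LD turned to -0.024 and ADRA2A for HD against LD to -0.63, and called genes numbered 17 at LD, 10 for NEC, 13 for HD against MD, 1 for MD against LD and 100 for HD against LD (180). The replicate numbers of LD, MD and HD did not pair the samples (r from -0.148 to 0.255), and with a replicate block SCGN (-0.82, adjusted p = 0.0607) and CACNA1D (-0.46, adjusted p = 0.0676) were no longer called for HD against MD.

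Leaving out 1 sample at a time against CA gave -1.56 to -0.69 for ADRA2A and 0.18 to 0.29 for CAMK2N1 at HD, -0.38 to 0.070 for OR51E1, -0.87 to -0.72 for SCGN and -0.031 to 0.074 for CAMK2N1 at LD, and -0.089 to 0.20 for SCGN and -0.066 to 0.038 for CAMK2N1 in NEC. Called genes ran from 2 to 26 at LD, 1 to 2 for NEC, 25 to 68 for HD against MD and 53 to 96 for MD against LD. ADRA2A ran from -0.23 to 0.63 for HD against MD and from -0.39 to 0.48 for HD against LD.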
